A study of Homo sapiens with 9 samples.

Results

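The 3 arrays numbered replicate 2 were compared with the 3 arrays numbered replicate 3, 6 of the 9 arrays of a study of coffee compounds in HT29 cells, a human colon cancer line. Each number has 1 array of cells given caffeic acid (CA, a coffee polyphenol) at 1.68 µg/mL for 24 h, 1 of cells given instant caffeinated coffee (ICC) at 7 µg/mL for 24 h, and 1 of untreated cells (Control). The arrays were chosen by the number in their titles, with treatment as a covariate, so the comparison is of 3 same-treatment pairs. The remaining 3 arrays, numbered replicate 1, serve as context. The labels do not say what a number marks or whether replicates were separate cultures. The errors therefore rest only on the spread between arrays, which may be technical.

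This contrast was taken up because arrays of 1 number had been seen to resemble each other in these same data. All differences between replicate 2 and replicate 3 are therefore a description of these 6 arrays, and no test is claimed for them. A level is the log2 of the normalized intensity of a gene's brightest probe set. A difference is replicate 2 minus replicate 3 on that scale with the standard error of a limma fit. That fit draws each gene's spread toward a value shared over all genes. An error can therefore be smaller or larger than the gene's own spread between pairs would give. Of 11 colon epithelium markers, KRT18, KRT8 and EPCAM were brightest, at 14.37, 13.33 and 13.16 in replicate 2 and 14.39, 13.47 and 13.17 in replicate 3. Lower levels were seen for CEACAM5, CDX2 and CDX1, at 6.21, 5.97 and 7.13 in replicate 2 and 6.15, 5.95 and 7.12 in replicate 3, and a level does not by itself show whether such a gene was expressed. Of the 11, 6 were lower on all 3 replicate 2 arrays than on all 3 replicate 3 arrays, among them KRT8, KRT19 and VIL1, and LGALS4 was higher, at shares of 8.9% and 9.47% over all genes. The median difference of the list was -0.02, and -0.12 without dim genes.

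The 4 genes that mark the contrast belong to the immediate early genes (EGR1 and FOS) and the ATF4 response (DDIT4 and CHAC1). Immediate early genes are transcribed within minutes of growth factor, serum or stress signals, largely through MAP kinases acting on serum response factor and its partners at CArG boxes and on CREB and ATF factors, and many of them encode transcription factors. ATF4 is translated when eIF2α is phosphorylated during amino acid shortage, endoplasmic reticulum stress or related stresses, and it turns on amino acid synthesis and transport together with stress regulators such as DDIT4, an inhibitor of mTORC1, and CHAC1, an enzyme that degrades glutathione. Composite C/EBP-ATF sites carry ATF4 to many of these genes.

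The proximal promoters of the 4 genes that mark the contrast are shown so that they can be searched for the sites through which these programmes are known to act. Each is the 250 bases before the gene's start in RefSeq (GRCh38.p14), 5′ to 3′ on the gene's strand. Capitals mark matches on either strand to the CArG box, to TGATGNAA (a C/EBP-ATF composite core) or to TGACG (a CREB and ATF core). The marked matches do not overlap.
EGR1, chr5:138465229-138465478, + strand: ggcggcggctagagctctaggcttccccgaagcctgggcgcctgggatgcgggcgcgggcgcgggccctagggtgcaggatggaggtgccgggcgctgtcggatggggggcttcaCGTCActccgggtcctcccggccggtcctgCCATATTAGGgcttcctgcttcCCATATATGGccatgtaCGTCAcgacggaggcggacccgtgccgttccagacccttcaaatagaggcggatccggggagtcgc
FOS, chr14:75278578-75278827, + strand: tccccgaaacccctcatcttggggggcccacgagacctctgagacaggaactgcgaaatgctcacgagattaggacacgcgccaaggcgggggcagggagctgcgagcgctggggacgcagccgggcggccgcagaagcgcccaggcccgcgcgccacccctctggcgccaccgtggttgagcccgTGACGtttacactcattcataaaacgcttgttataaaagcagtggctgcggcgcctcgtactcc
DDIT4, chr10:72273674-72273923, + strand: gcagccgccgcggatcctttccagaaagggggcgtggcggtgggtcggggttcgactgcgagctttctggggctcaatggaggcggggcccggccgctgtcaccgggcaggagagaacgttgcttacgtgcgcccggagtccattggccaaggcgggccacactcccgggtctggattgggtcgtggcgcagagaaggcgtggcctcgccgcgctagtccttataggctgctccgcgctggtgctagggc
CHAC1, chr15:40953221-40953470, + strand: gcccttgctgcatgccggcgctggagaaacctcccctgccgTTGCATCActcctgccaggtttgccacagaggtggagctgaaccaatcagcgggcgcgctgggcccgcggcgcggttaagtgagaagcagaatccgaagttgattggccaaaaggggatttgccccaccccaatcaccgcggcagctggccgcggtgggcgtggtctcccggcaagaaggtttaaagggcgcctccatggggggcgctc

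EGR1 held 2 CArG boxes, at 105 to 96 and 83 to 74 bases before the start, and TGACG on the reverse strand at 135 to 131 and 66 to 62. FOS held TGACG at 64 to 60 bases before the start, and its window held no CArG box. CHAC1 held TGATGNAA on the reverse strand at 209 to 202. No match to these letters lay in the DDIT4 window. Among 27305 genes with such a window, a CArG box was found in 1.44%, TGATGNAA in 3.89% and TGACG in 24.9%. Of the measured list members, 19 of 28 immediate early genes and 34 of 41 ATF4 response genes had such a window. In the immediate early list 2 of 19 windows held a CArG box (EGR1 and SRF), 13 held TGACG and 1 held TGATGNAA (ATF3). In the ATF4 list 7 of 34 held TGATGNAA (AARS1, ASNS, CEBPG, CHAC1, FGF21, GARS1 and JDP2), 16 held TGACG and 1 held a CArG box (GARS1). A match is a description of the window and not a measured binding site. Sequence farther upstream was not searched, so whether FOS has a CArG box there was not tested.

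EGR1, a zinc-finger transcription factor, had levels of 12.54 in CA, 12.17 in ICC and 12.48 in Control among the replicate 2 arrays, against 10.28, 10.52 and 10.22 in the same order among the replicate 3 arrays. The lowest replicate 2 array stood well above the highest replicate 3 array, whatever the treatment. The means were 12.39 ± 0.20 in replicate 2 and 10.34 ± 0.16 in replicate 3 (SD, n = 3 each), a difference of 2.05 ± 0.12 or 4.15-fold. The 2 other EGR1 probe sets gave differences of 1.31 and 1.50 in the same direction.

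FOS, the AP-1 subunit, had levels of 8.43 in CA, 8.25 in ICC and 8.80 in Control in replicate 2, against 6.44, 6.98 and 6.38 in replicate 3. The groups did not overlap, and the ICC arrays were closest to each other. The difference was 1.89 ± 0.18, or 3.72-fold.

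DDIT4 had levels of 12.49 in CA, 11.96 in ICC and 11.67 in Control in replicate 2, against 9.72, 11.05 and 9.19 in replicate 3. CHAC1 had levels of 9.86, 9.13 and 9.04 in replicate 2, against 7.25, 8.46 and 6.71 in replicate 3. For both genes the groups did not overlap, but the ICC array of replicate 3 lay far above the other arrays of its number. The differences were 2.05 ± 0.31 for DDIT4 (4.14-fold) and 1.87 ± 0.32 for CHAC1 (3.66-fold). Within pairs, DDIT4 differed by 2.77 in CA, 0.90 in ICC and 2.48 in Control, and CHAC1 by 2.61, 0.67 and 2.33.

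**Figure D1:**
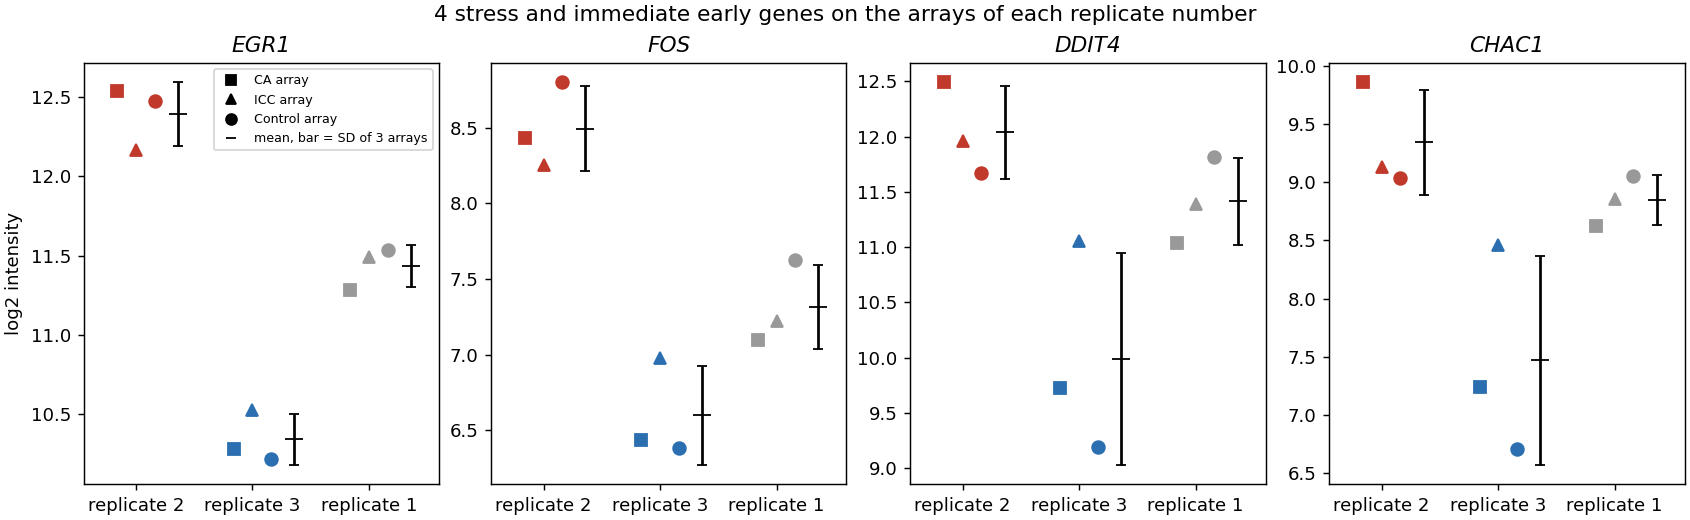
Log2 intensity of EGR1, FOS, DDIT4 and CHAC1 on every array, grouped by replicate number; squares are CA, triangles ICC and circles Control, and the bar is the mean ± SD of 3 arrays. Replicate 2 lies above replicate 3 for all 4 genes, the ICC array of replicate 3 is the highest of its number, and replicate 1 lies between the others for EGR1 and FOS.

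Over all 19775 genes the median difference was -0.0028, with quartiles of -0.07 and 0.07. A total of 54 genes (0.273%) passed an adjusted p under 0.05 in limma (Benjamini-Hochberg), 33 of them higher in replicate 2 (0.167%) and 21 lower (0.106%). The rule for choosing the arrays used this contrast, so nothing is read from these shares. By size, 37 genes were more than 2-fold higher in replicate 2, and PIGR alone was more than 2-fold lower. With 2 residual degrees of freedom the count is unstable: 8 higher and 1 lower passed without either ICC array, and 0 higher and 1 lower without either Control or either CA array, where 1730 and 2241 genes had an unadjusted p under 0.05. The gene that still passed as lower each time was PIGR. EGR1 and FOS passed on the 6 arrays, while DDIT4 and CHAC1 did not.

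**Figure D2:**
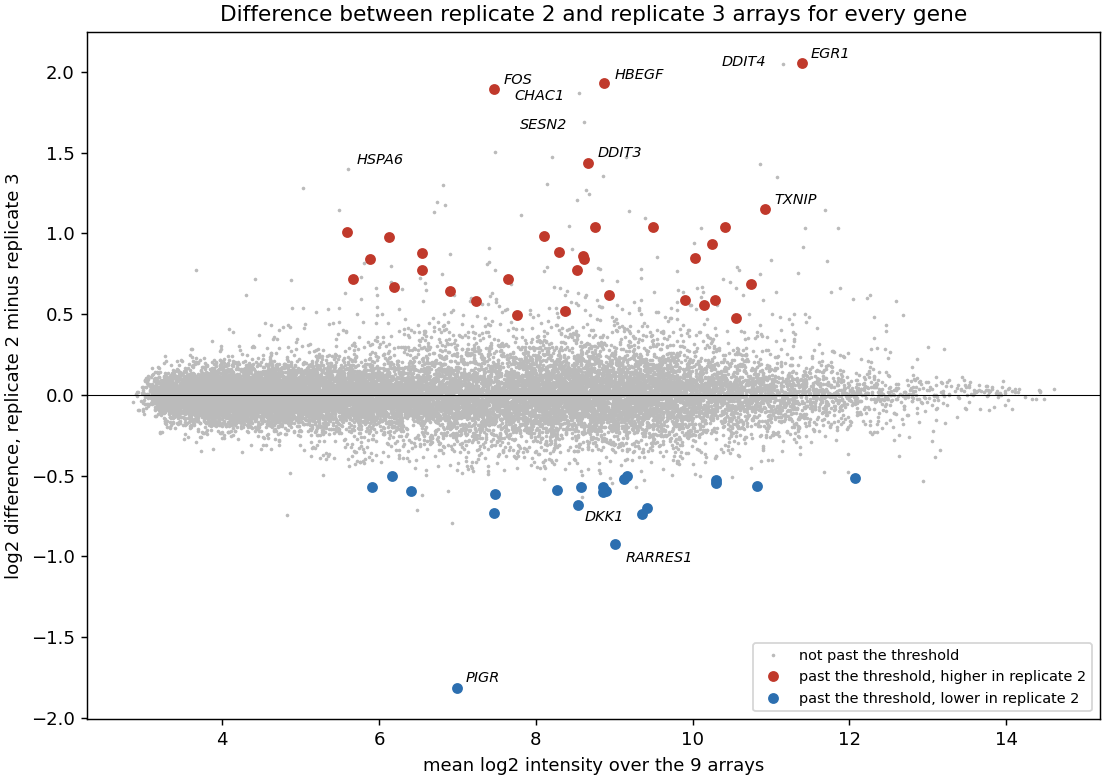
Log2 difference, replicate 2 minus replicate 3, against mean log2 intensity over the 9 arrays for 19775 genes; red and blue points pass the threshold as higher (33 genes) or lower (21 genes) in replicate 2. Most genes lie close to 0, EGR1, DDIT4, HBEGF, FOS and CHAC1 are at the top, and PIGR stands alone at the bottom.

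Among the 15 largest positive differences past the threshold in brighter genes, which ran from 0.84 to 2.05, HBEGF followed EGR1. HBEGF, a ligand of the EGF receptor, had levels of 10.15 in CA, 9.67 in ICC and 9.70 in Control in replicate 2, against 7.63, 8.33 and 7.75 in replicate 3. The arrays were far apart, by 1.93 ± 0.19 or 3.82-fold, and of its 3 dimmer probe sets 1 differed by 1.85 and the others by -0.01 and -0.07. DDIT3, which encodes the stress transcription factor CHOP, had levels of 9.53, 9.35 and 9.14 in replicate 2, against 7.84, 8.36 and 7.51 in replicate 3, a difference of 1.44 ± 0.13.

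TXNIP and ARRDC4, arrestin-family proteins that restrain glucose uptake, differed by 1.15 ± 0.15 and 1.04 ± 0.14. TXNIP levels were 11.83 in CA, 11.33 in ICC and 11.33 in Control in replicate 2, against 10.28, 10.68 and 10.09 in replicate 3, with no overlap. The arrays of ARRDC4 were apart in the same way. GADD45A, which acts in growth arrest and DNA damage responses, and PMAIP1, which encodes the pro-apoptotic protein NOXA, each differed by 1.04, with SE of 0.11 and 0.12.

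The remaining members were ZNF697, MAFF (a small MAF transcription factor), JUNB (an AP-1 subunit), RASD1 (a Ras-like GTPase), SERTAD1 (a regulator of the cell cycle), KLF10 (a Krüppel-like factor) and ZFAND2A (a proteasome-associated protein induced by arsenite). Their differences lay between 0.84 and 0.98, and in every one of them all 3 replicate 2 arrays were above all 3 replicate 3 arrays. The dimmer probe set of ZNF697 differed by 0.26 and that of MAFF by 0.67.

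The 15 genes named as lower in replicate 2 differed less, with PIGR the exception. PIGR carries IgA and IgM across mucosal epithelium, and its levels were 5.75 in CA, 6.08 in ICC and 5.96 in Control in replicate 2, against 7.61, 7.81 and 7.81 in replicate 3. The groups were tight and far apart, with a difference of -1.81 ± 0.07, or 3.52-fold lower. The probe sets of PIGR disagreed: the second one had mean levels of 5.91 in replicate 2 and 5.98 in replicate 3, a difference of -0.08, so the lower level rests on 1 probe set. RARRES1, a retinoic acid-responsive gene, had levels of 8.27, 8.20 and 8.32 in replicate 2, against 9.05, 9.26 and 9.24 in replicate 3 (-0.92 ± 0.08).

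Other genes of the set encode immune proteins. The chemokine CXCL6 differed by -0.73 ± 0.08 and the complement component C3 by -0.68 ± 0.07, while the chemokines CCL20 and CXCL8 were higher in replicate 2. CXCL6 levels were 6.38 in CA, 6.76 in ICC and 6.65 in Control in replicate 2, against 6.99, 7.48 and 7.51 in replicate 3, again without overlap.

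A pair of Wnt pathway genes was lower in replicate 2, namely DKK1, a secreted Wnt inhibitor, and LRP5, a Wnt co-receptor. DKK1 levels were 9.41 in CA, 9.35 in ICC and 9.17 in Control in replicate 2, against 9.92, 10.26 and 9.97 in replicate 3 (-0.74 ± 0.09), and LRP5 differed by -0.59 ± 0.08. DKK1 did not pass the threshold when all 9 arrays were fitted. The others were LPCAT1 (a phospholipid acyltransferase, -0.70), MTBP (an MDM2-binding protein, -0.62), the transcription factor MYB (-0.60), the matrix protein TNC (-0.59), GABRP (a GABA receptor subunit, -0.57), PGGHG (-0.57), the myo-inositol transporter SLC5A3 (-0.57), the potassium channel subunit KCNE3 (-0.54) and the serine protease PRSS23 (-0.53). For LRP5, MYB, TNC and PGGHG, dimmer probe sets of the same gene differed by 0.03 to -0.05. Of the 3 other probe sets of MTBP 1 differed by -0.33 and the rest by -0.05 and 0.03, and of those of PRSS23 1 differed by -0.58 and the rest by 0.07 and 0.14.

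Of 30 immediate early genes listed, 28 were measured, 26 of them with a difference above 0 and a median of 0.53. All 3 replicate 2 arrays exceeded all 3 replicate 3 arrays for 17 of the 28 and lay below them for 0, where 9.47% of all genes were apart upwards and 8.9% downwards. The 7 members past the threshold as higher (0.167% of all genes) were EGR1, FOS, JUNB, KLF10, IER2, IER5 and JUN. Beside EGR1 and FOS, the largest differences were those of ATF3, a stress-induced factor (1.47 ± 0.27), and KLF4, a Krüppel-like factor of epithelial differentiation (1.10 ± 0.21). The dimmer probe sets of ATF3 differed by 1.06 and 0.07, and that of KLF4 by 0.72. The list was not uniform: 11 members overlapped between the numbers, with differences from -0.10 to 0.35, among them MYC.

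MAP kinase signalling also induces its own feedback inhibitors. Of 17 such genes 15 had a difference above 0, with a median of 0.39. Of the list, 8 were apart upwards (9.47% of all genes) and 1 downwards (8.9%). On the 6 arrays 0 passed in limma, with 12 at an unadjusted p under 0.05, against 2777 of all 19775 genes. On all 9 arrays 5 passed upwards, as did 0.936% of all genes. The ERK phosphatases DUSP5 and DUSP6 differed by 1.05 ± 0.21 and 0.75 ± 0.15, the phosphatase DUSP1 by 0.79 ± 0.13, and the signalling inhibitor SPRY4 by 0.90 ± 0.13. The dimmer probe sets of DUSP1 differed by 0.39 and -0.005. Leaving out either CA array lowered the median of this list to 0.26 and the difference of DUSP5 to 0.69.

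Of 42 ATF4 response genes 41 were measured, 37 with a difference above 0 and a median of 0.60. A total of 28 were apart upwards (9.47% of all genes) and 1 downwards (8.9%). DDIT3 alone passed the threshold as higher, as did 0.167% of all genes. The list holds transporter and enzyme genes of amino acid supply. ASNS, asparagine synthetase, differed by 1.35 ± 0.24, CTH, which makes cysteine, by 1.50 ± 0.25, and SLC7A11, the cystine importer, by 1.03 ± 0.21. ASNS levels were 12.33 in CA, 11.68 in ICC and 11.14 in Control in replicate 2, against 10.12, 11.01 and 9.97 in replicate 3, so the ICC array of replicate 3 came close to the Control array of replicate 2.

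The regulators of the same list were SESN2, an inhibitor of mTORC1 (1.69 ± 0.26), TRIB3, a pseudokinase that dampens ATF4 and CHOP activity (1.43 ± 0.22), and ATF4 itself (0.60 ± 0.10). Over the list, the median pair difference was 0.91 in CA, 0.34 in ICC and 0.55 in Control, and for immediate early genes it was 0.59 in CA, 0.27 in ICC and 0.53 in Control.

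**Figure D3:**
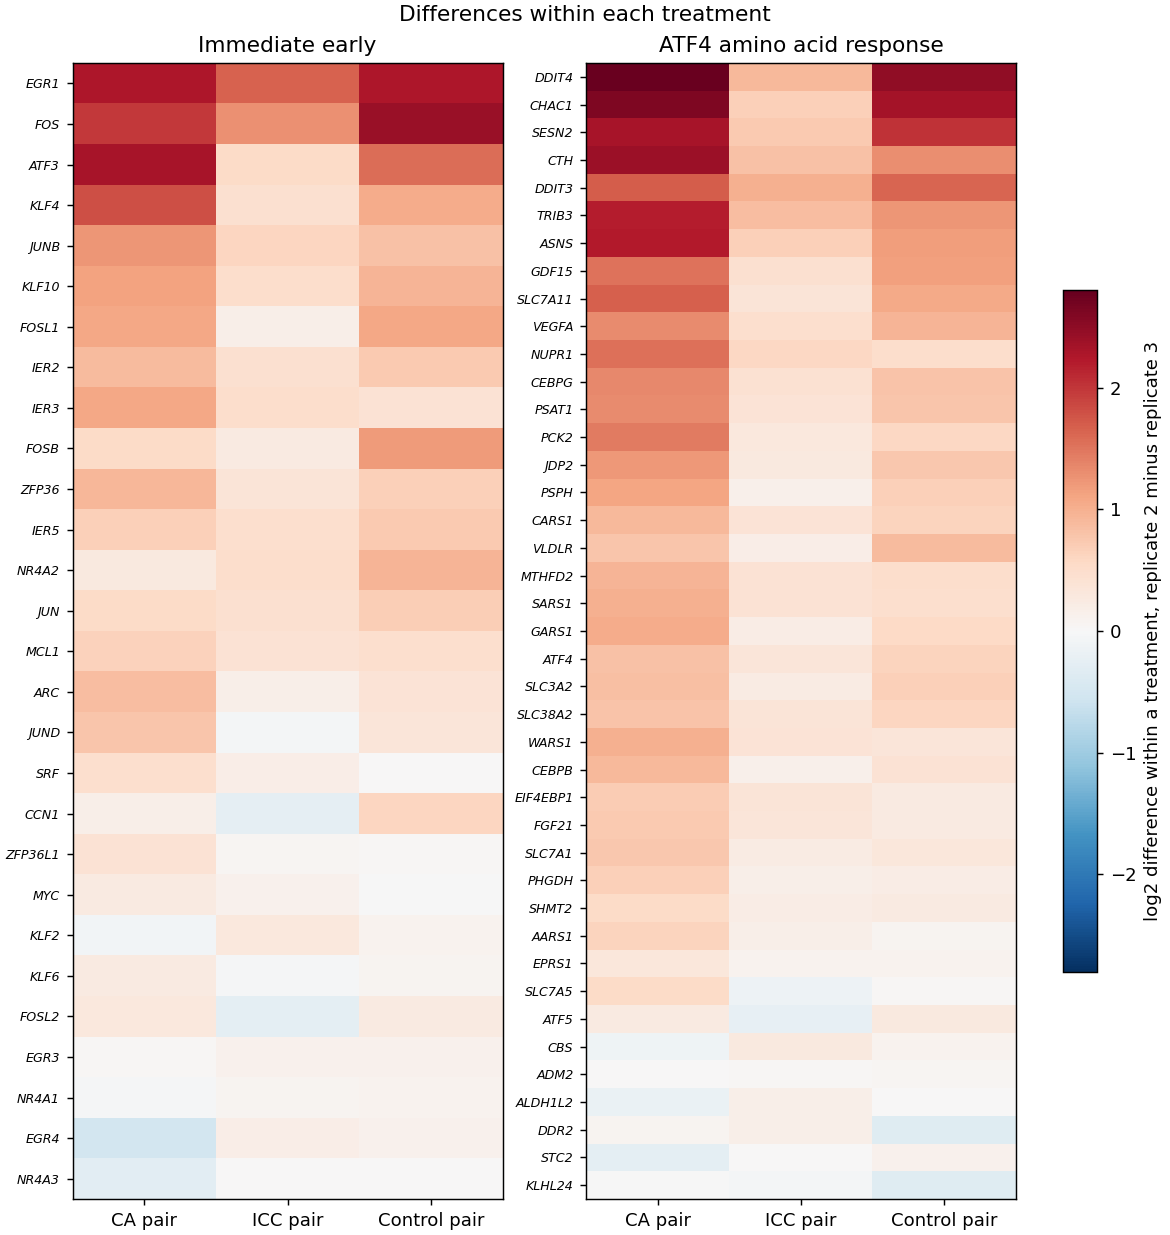
Log2 difference within each treatment, replicate 2 minus replicate 3, for every measured member of the immediate early list (28 genes) and the ATF4 list (41 genes), ordered by the mean of the 3 pairs. Red is higher in replicate 2; the leading genes are darkest in the CA and Control columns, and the ICC column is paler, though EGR1 and FOS differ there too, by 1.64 and 1.27.

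The ER chaperones, which the unfolded protein response induces through other factors, were mostly lower in replicate 2. Of 22 measured, 17 were below 0, with a median of -0.19. Apart downwards were 12 (8.9% of all genes), and 3 were apart upwards (9.47%). On the 6 arrays 0 passed in limma, with 14 at an unadjusted p under 0.05, against 2777 of all 19775 genes. On all 9 arrays 2 passed downwards, as did 0.799% of all genes. PDIA4, a disulphide isomerase, had levels of 10.82 in CA, 10.69 in ICC and 10.92 in Control in replicate 2, against 11.12, 11.12 and 11.21 in replicate 3 (-0.34 ± 0.07), and MANF, a secreted ER stress protein, differed by -0.39 ± 0.07. HERPUD1, which acts in ER-associated degradation, was the largest exception at 0.79 ± 0.14. The probe sets differed in size here, with -0.09 for the second probe set of PDIA4 and 0.25 for that of HERPUD1, both dimmer.

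The glucose-sensing list that holds TXNIP had 10 members, with a median of 0.40, 5 of them apart upwards (9.47% of all genes) and 4 past the threshold as higher (0.167% of all genes), namely ARRDC3, ARRDC4, TXNIP and KLF10. Its median was 0.16 without either Control array. Of 19 p53 target genes 14 were above 0, 10 were apart upwards and GADD45A passed the threshold, against the same shares of all genes, with a median of 0.18 that was 0.11 without either CA array. CDKN1A, the cell cycle inhibitor p21, had levels of 10.06 in CA, 9.40 in ICC and 9.59 in Control in replicate 2, against 7.99, 8.65 and 7.97 in replicate 3 (1.48 ± 0.21). SESN2 stands in both the p53 and the ATF4 lists.

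Interferon-stimulated genes, the antiviral programme, were above 0 in 25 of 26 measured, with a median of 0.28 and 15 apart upwards (9.47% of all genes). On the 6 arrays 0 passed in limma, with 19 at an unadjusted p under 0.05, against 2777 of all 19775 genes. On all 9 arrays 2 passed upwards (0.936% of all genes). IFI44L had levels of 10.89 in CA, 10.57 in ICC and 10.37 in Control in replicate 2, against 9.67, 9.98 and 9.86 in replicate 3 (0.77 ± 0.13). The CA pair carried more of this than the others, with a list median of 0.60 in CA, 0.21 in ICC and 0.09 in Control, and leaving out either CA array lowered the median to 0.16.

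Among 20 NF-kB chemokine and feedback genes 16 were above 0, with a median of 0.14 that was 0.01 without either CA array, and 4 were apart upwards (9.47% of all genes). The chemokines CCL20 and CXCL8 differed by 1.27 ± 0.26 and 0.83 ± 0.14, and CCL20 by 0.84 without either CA array. HSPA6, a heat shock protein induced under strong stress, stood apart from the median of its list. Its levels were 5.45 in CA, 6.68 in ICC and 7.44 in Control in replicate 2, against 5.19, 5.35 and 4.83 in replicate 3. The Control and ICC arrays of replicate 2 thus made the difference of 1.40 ± 0.36 (0.79 without either Control array). The dimmer probe set of HSPA6 differed by 0.49, and the median of 16 heat shock genes was -0.02.

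Proliferation and lipid synthesis genes were slightly lower in replicate 2. Of 30 G1/S and replication genes 24 were below 0, with a median of -0.10, 12 apart downwards (8.9% of all genes) and 1 upwards. The replicative helicase subunit MCM4 differed by -0.34 ± 0.07, and its dimmer probe sets by -0.22, -0.15, -0.28 and -0.004. Of 30 G2/M genes 7 were apart downwards and 2 upwards, with a median of -0.08 that was -0.029 without either CA array. Of 24 sterol and fatty acid synthesis genes 20 were below 0, 1 was apart upwards and 6 were apart downwards, including MSMO1 (-0.49 ± 0.10) and SQLE (-0.37 ± 0.07), which encode sterol enzymes. On the 6 arrays 0 members of these 3 lists passed in limma, with 10, 5 and 9 at an unadjusted p under 0.05. In the same fit 2777 of all 19775 genes had an unadjusted p under 0.05. On all 9 arrays 1 G1/S gene, 0 G2/M genes and 2 of the lipid list passed downwards (0.799% of all genes), and the G1/S median was -0.06 without either CA array.

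Wnt target and stem cell genes were below 0 in 16 of 18, with a median of -0.14 that was -0.10 without either CA array. Apart downwards were 5 (8.9% of all genes). In limma 0 passed on the 6 arrays, with 6 at an unadjusted p under 0.05, against 2777 of all 19775 genes. With all 9 arrays 1 passed upwards (0.936% of all genes) and 2 downwards (0.799%). LGR5, the intestinal stem cell receptor, had levels of 5.99 in CA, 6.46 in ICC and 6.96 in Control in replicate 2, against 7.15, 7.11 and 7.52 in replicate 3 (-0.79 ± 0.12). AXIN2, a Wnt feedback gene, differed by -0.36 ± 0.07. The dimmer probe set of LGR5 differed by -0.43, and those of AXIN2 by -0.11, -0.33 and -0.15. The medians of the other lists lay between -0.04, for oxidative phosphorylation subunits, and 0.11, for circadian clock genes. The clock median was 0.07 without either Control array and 0.17 without either ICC array. Clustered histone genes had a median of 0.10, which lay between 0.03 and 0.16 when single arrays were left out, and NRF2 targets had 0.05, against 0.20 without the _x_at and _s_at probe sets.

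**Figure D4:**
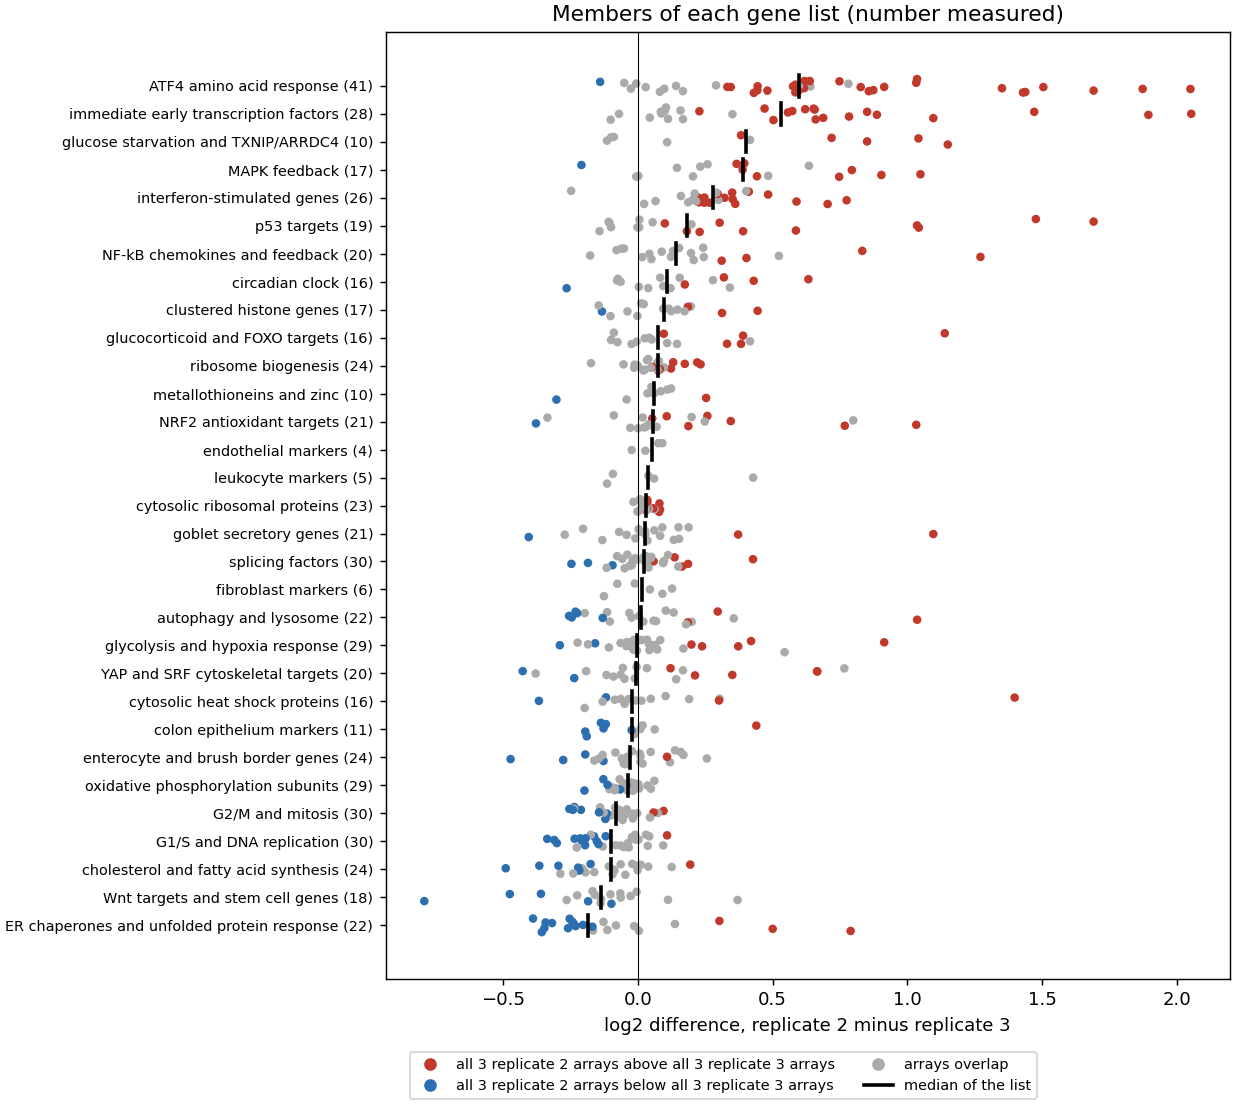
Log2 difference, replicate 2 minus replicate 3, of every measured member of 31 gene lists; each point is a gene, coloured by whether the 3 arrays of each number were apart, and black bars are list medians. The ATF4 and immediate early lists have the highest medians (0.60 and 0.53), and the ER chaperone list the lowest (-0.19).

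Set beside treatment, the number took a larger share of the summed variation among the 6 arrays. It accounted for 39.8% with 1 degree of freedom, treatment for 30.4% with 2, and the rest was 29.8%. The median over genes, taken for each share separately, was 20.0% for the number (1 degree of freedom) and 34.1% for treatment (2). Per degree of freedom, the number took more than treatment in 52.5% of genes. The number held 98.0% of the variation of EGR1, 93.5% of FOS, 74.2% of DDIT4 and 72.3% of CHAC1. These 4 genes mark the contrast, so high shares were fixed by their choice. The contrast itself was taken up because arrays of 1 number resembled each other. All these shares therefore only describe the 6 arrays. More than 2-fold differences within a pair counted 109 genes higher and 2 lower in CA, 6 higher and 4 lower in ICC, and 43 higher and 4 lower in Control.

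Across all 9 arrays, with both number and treatment in the limma fit, 343 genes (1.73%) passed for replicate 2 against replicate 3, 185 higher (0.936%) and 158 lower (0.799%), and 52 of the 54 genes above were among them, all but DKK1 and TRERF1 (TRERF1 is named after its values were seen). DDIT4 and CHAC1 passed there, as did 12 immediate early and 7 ATF4 list members. In the same fit 3 genes (0.0152%) passed for CA against Control, 1 (0.00506%) for ICC against CA and 0 (0%) for ICC against Control, where 2453 had an unadjusted p under 0.05. Whether these counts differ was not tested.

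The replicate 1 arrays did not form an end of a common order. EGR1 levels there were 11.28 in CA, 11.49 in ICC and 11.53 in Control, between the other numbers, and FOS levels were 7.10, 7.22 and 7.63. DDIT4 levels of 11.03, 11.39 and 11.82 overlapped those of both other numbers. CXCL6 was highest in replicate 1 at 8.34, 8.51 and 8.64, and DKK1 lowest at 8.72, 8.26 and 9.15. The mean level of the interferon list was 10.41 in CA, 10.15 in ICC and 10.05 in Control in replicate 2, against 9.80, 9.96 and 9.97 in replicate 3, while the replicate 1 arrays were above both at 10.73, 10.63 and 10.77. In the 9-array fit 901 genes (4.56%) passed for replicate 1 against replicate 3 and 760 (3.84%) for replicate 2 against replicate 1; these comparisons share arrays with each other and with the main one.

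**Figure D5:**
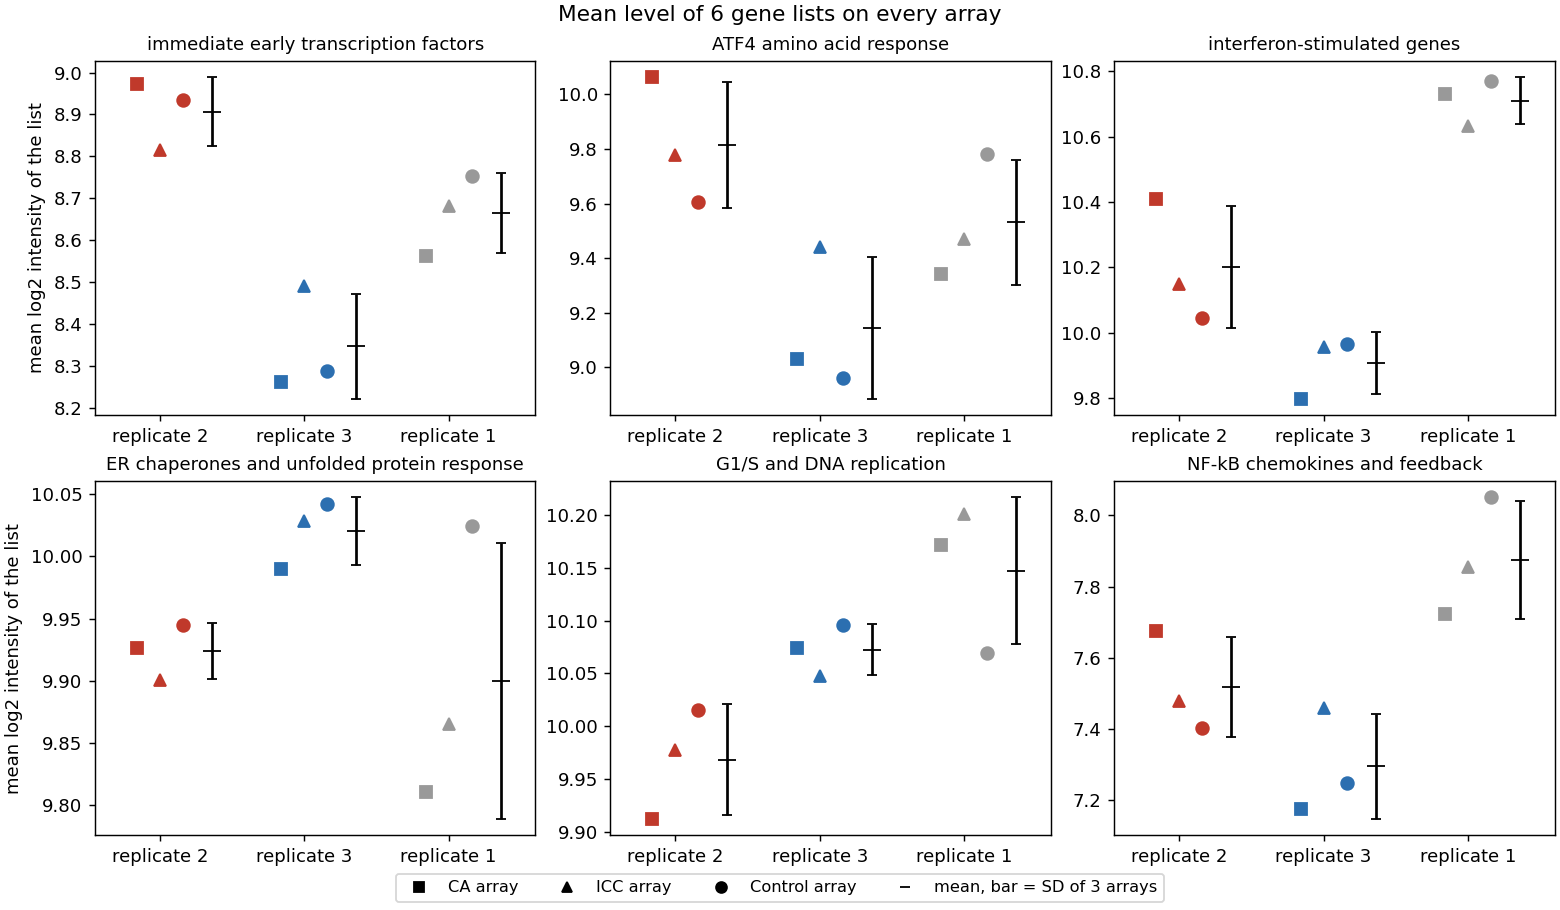
Mean log2 intensity of the measured members of 6 gene lists on every array, by replicate number, with the mean ± SD of 3 arrays. Replicate 2 lies above replicate 3 for the immediate early, ATF4 and interferon lists and below it for the ER chaperone and G1/S lists, and replicate 1 is the highest number for the interferon and NF-kB lists.

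Of the array quality measures, the 3′ to 5′ signal ratios differed little between the numbers. The 3′ to 5′ signal ratio of ACTB was 1.22 to 1.32 in replicate 2 and 1.22 to 1.28 in replicate 3, and that of GAPDH was 0.993 to 1.01 in replicate 2 and 1.01 to 1.07 in replicate 3. The BioB hybridization control, added in the laboratory, read 337 on the CA array of replicate 2, against 215 and 247 on the other replicate 2 arrays and 210 to 258 on the replicate 3 arrays. The controls BioC, BioDn and CreX were likewise highest of the 6 arrays on the CA array of replicate 2. They read 868, 1690 and 12067 there, against 531, 1050 and 8990 on the CA array of replicate 3. The CA pair also held the most genes more than 2-fold apart, and the part of hybridization in that was not tested. Leukocyte, fibroblast and endothelial markers showed 0 of 15 genes apart between the numbers, where 9.47% of all genes were apart upwards and 8.9% downwards. With so few genes nothing is read from that count. Of the 15, 10 had mean levels under 6 in both numbers. The other 5 were PECAM1, CD14, LAPTM5, COL1A1 and LYZ, and LYZ was bright at 13.18 in replicate 2 and 13.14 in replicate 3.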

How the data were processed

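Total RNA of HT29 cells was hybridized to 9 Affymetrix HG-U133 Plus 2.0 arrays. The deposited values are intensity on a linear scale, which the authors normalized by RMA (per the submitters' processing notes). GeneSpring GX is the software their design text gives. Its version, like the RMA settings, is not given in the sources used here. Array medians lay between 43.8 and 46.6, no value was missing, and 0 columns were unmapped. Precision is limited by the 3 arrays of each number.

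The log2 of each intensity was taken here. Of 54675 probe sets, 62 controls and those with several symbols (1801) or none (11721) were left out, and each of 19775 genes was represented by the brightest of its probe sets over the 9 arrays. The 6 arrays of replicates 2 and 3 were fitted with limma 3.58.1 in R 4.3.3, with number and treatment as terms, and p-values were adjusted by Benjamini-Hochberg over all genes, with a threshold of 0.05. The fit was tested on simulated data with independent noise for each gene and array and no treatment effect. That test does not cover spread shared between arrays or genes. An exact permutation of 3 against 3 arrays, which ignores the pairing, cannot give a p under 0.1. Sign flips within the 3 same-treatment pairs cannot give a p under 0.25.

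The named genes were the 4 markers and, in each direction, the 15 largest differences among genes past the threshold, of 1 direction in all 3 pairs, with a mean level at or above the median gene. Members of the immediate early and ATF4 lists could all be named, and up to 5 with the smallest p of each other list. The markers, members and lists were chosen with earlier results of these data known. Genes without a single-gene probe set were not analysed here. Alternatives changed the scaling, offset, probe set choice, filter, covariate and arrays used. Plots used matplotlib 3.10.9 (Python 3.11.15).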

Additional observations from a re-analysis of the deposited data

How the results depend on the processing

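With the replicate number as the block, no paired analysis was possible because that number is itself the contrast. The fit is paired by treatment instead, which leaves 2 residual degrees of freedom. The counts of 33 genes higher and 21 lower in replicate 2 in limma depended on nearly every choice, and the cause was not tested. Centring each array on its median gave 50 higher, quantile normalization again gave 157 and 97 lower, log2(value + 16) gave 0 and 1 (with 3077 genes at an unadjusted p under 0.05), dropping probe sets of the _x_at and _s_at classes, which can match several transcripts, gave 80 and 56, dropping dim genes gave 140 and 113, probe sets taken singly gave 65 and 47, the fit without treatment gave 67 and 34, and all 9 arrays gave 185 and 158. An adjusted p under 0.01 left 2 and 1, and an unadjusted p under 0.05 gave 1442 and 1335. Leaving out any 1 array drops its pair from the contrast and gave 0 to 8 higher and 1 lower. EGR1, FOS, DDIT4, CHAC1 and the other 28 genes of the named rule kept their sign under every alternative that measured them. Sizes depended most on the probe set: PIGR differed by -0.08 without the _x_at and _s_at classes and by -0.95 as the mean of its probe sets, HBEGF by 0.93 as such a mean, and ASNS by 0.46 without those classes. Without those classes the median of the ER chaperones was -0.12, of the p53 targets 0.06, of the TXNIP list 0.26 and of the lipid synthesis list -0.16. The arrays have no replicate beyond 3 per number, and what the number marks is not given in the sources used here.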
